A study of Gallus gallus with 16 samples.

Results

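The genes and gene classes described here are those whose response to procyanidin B1 (PB1) changed in size or direction when chicken HD11 cells were also given lipopolysaccharide (LPS). A transcript entered when its mean reached 10 reads per 1000000 in any of the 4 groups, and 4242 of the 6492 listed transcripts did so. They comprised 1211 of 1682 curated mRNAs, 2804 of 4221 predicted mRNAs, 8 of 20 curated noncoding RNAs and 219 of 569 predicted noncoding RNAs. A gene symbol could be matched to 1217 of them by RefSeq accession, and the rest are counted without a name. HD11 is a macrophage-like chicken cell line, and RNA-seq was done on 4 libraries in each of 4 groups. The LPS + PB1 group received both agents, the LPS group LPS alone, the PB1 group PB1 alone, and the CTR group neither. LPS was given at 100 ng/mL. The labels state 6 h of LPS after 12 h of seeding. The methods of the study give 100 μg/mL PB1 for 12 h and then 12 h of LPS, in a passage that also covers cells given other agents, and whether it applies to these libraries was not stated. No PB1 dose is in the labels, and the treatment text of the labels, which covers every library, names 100 μM SeMC in the medium beside PB1. The methods also mention 3 RNA-seq samples in each group, whereas 4 are labelled. All groups came from 1 cell line, and whether the libraries of a group were separate cultures was not stated, so the p-values measure the spread between these libraries, which may be technical.

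LPS is the glycolipid that coats Gram-negative bacteria. Macrophages sense it through Toll-like receptors, whose adaptors lead to NF-κB, AP-1 and interferon regulatory factors and so to cytokine genes. PB1 is a flavan-3-ol dimer, a plant polyphenol studied as an antioxidant. With both agents applied alone and together, each transcript had a PB1 effect without LPS (PB1 minus CTR) and a PB1 effect with LPS (LPS + PB1 minus LPS). The interaction is the second minus the first, on the log2 scale. It is 0 when LPS left the PB1 effect as it was, positive when PB1 acted more upward in the presence of LPS, and negative when it acted more downward. The same number is also the difference between the LPS effect with and without PB1.

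Each library held 4173989 to 4414942 recovered reads, and its 10 highest transcripts took 14.2% to 17.99% of the signal. The libraries of a group formed pairs. Over 1728 transcripts, the SD of the log2 difference between 2 libraries was 0.142 and 0.179 within the pairs (replicates 1 and 2, replicates 3 and 4) of the LPS + PB1 group and 0.462 to 0.5003 between them, and 0.120 and 0.109 against 0.390 to 0.405 in the LPS group. It was 0.0913 and 0.170 within and 0.151 to 0.262 between pairs in the PB1 group, and 0.0800 and 0.161 against 0.287 to 0.314 in the CTR group. The labels do not say what separates the pairs, so the main counts are also given within each pair and over pair means. Of 25 macrophage genes listed, 3 were matched. Of these, MRC1 and MMP9 had at most 3 and 1 reads in any library. Of 20 fibroblast genes, 6 were matched, and their summed signal was 53551 to 71823 per 1000000 in the LPS + PB1 group, 62819 to 82554 in the LPS group, 51206 to 55222 in the PB1 group and 75943 to 85492 in the CTR group. COL1A2 and VIM held most of each sum and differed in direction. Their means were 16341 and 29797 in the PB1 group, and 43407 and 23306 in the CTR group. Hemoglobin HBA1, an erythroid gene, had 0.225, 74.3, 308 and 91.4 per 1000000 in LPS + PB1 libraries and 0.9299, 0.218, 76.1 and 0.208 in LPS libraries. It had 0.643, 0.2001, 129 and 0.4404 in PB1 libraries and 0.196, 0.468, 0.417 and 1.73 in CTR libraries. The part of these markers in the results was not tested, and in bulk RNA fewer cells of a type and less RNA per cell cannot be told apart.

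PB1 changed many transcripts in either setting, and in most of these the change differed with LPS, by the test of the interaction. Calls required a limma adjusted p of 0.05 or less and a change of at least 1.5-fold (0.585 on the log2 scale). The interaction was called in 1320 of the 4242 transcripts, 623 positive and 697 negative. Over all 4651 transcripts tested, 31.8% were called, 14.9% positive and 16.9% negative. All 4242 passed the filter on low values, so this share is close to their own by construction. The interaction reached at least 1 on the log2 scale in 734 of those called and at least 2 in 309. Its median size over all 4242 was 0.38, against 0.23 for the PB1 effect without LPS and 0.25 with LPS. The interaction is a difference of 2 effects and carries the spread of both, so these sizes are not on an equal footing.

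Without LPS, PB1 changed 811 of these transcripts, raising 389 and lowering 422, whereas 20.5% of all tested were called (9.83% up and 10.7% down). With LPS it changed 783, raising 329 and lowering 454, whereas 19.6% of all tested were called (8.28% up and 11.3% down). The interaction was called in 636 of the 811 and in 592 of the 783. These 2 effects share no library. They were both called in 366 transcripts, and in 214 of these they ran in opposite directions, whereas in 61 both rose and in 91 both fell. Across the 4242 transcripts the 2 effects had a Pearson r of -0.01 and a Spearman rho of -0.14, given as a description since transcripts are not independent.

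**Figure D1:**
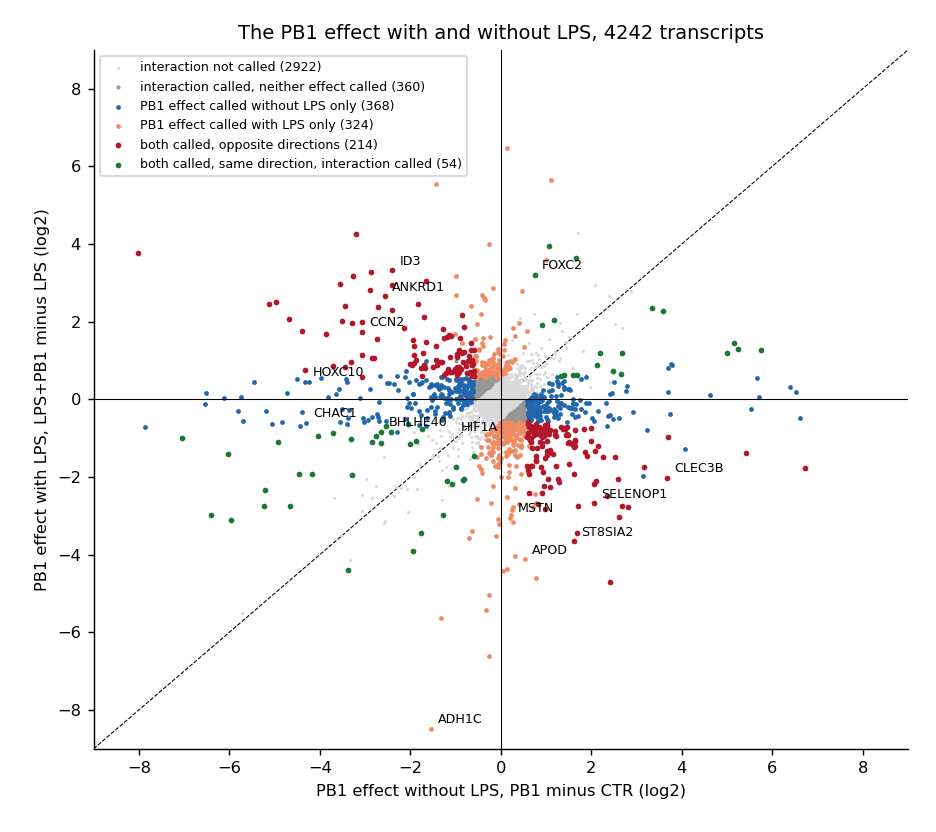
PB1 effect without LPS (x axis, PB1 minus CTR, log2) and with LPS (y axis, LPS + PB1 minus LPS, log2), with 1 point for each of 4242 transcripts, coloured by which PB1 effect was called; the dashed line marks equal effects. The 214 transcripts with opposite effects lie at the upper left and lower right, and the 368 and 324 with an effect called only without or only with LPS lie along the axes.

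Among the 1320 transcripts with a called interaction, 115 rose with PB1 alone and fell with PB1 in LPS cells, and 99 did the reverse. A further 368 had a PB1 effect called only without LPS and 324 only with LPS, while 54 moved the same way in both settings, 15 of them further with LPS and 39 less far. In the remaining 360 neither PB1 effect was called by itself. The group whose mean lay farthest from the other 3 was PB1 in 565 (42.8%), LPS + PB1 in 419 (31.7%), LPS in 204 (15.5%) and CTR in 132. Of the 2922 transcripts with no call it was PB1 in 30.7% and LPS + PB1 in 29.1%.

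Each pair of replicates was also fitted alone, with the spread taken within the pair. Replicates 1 and 2 gave 1534 called interactions and replicates 3 and 4 gave 1329. In 1022 the call was shared with the same direction (66.6% of the first list and 76.9% of the second), and in 12 it was opposite. Both PB1 effects were called in opposite directions in 286 transcripts in replicates 1 and 2 and in 202 in replicates 3 and 4. When each pair was averaged to 1 value, leaving 2 values in a group, 857 interactions were called and 113 opposite pairs of effects.

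**Figure D2:**
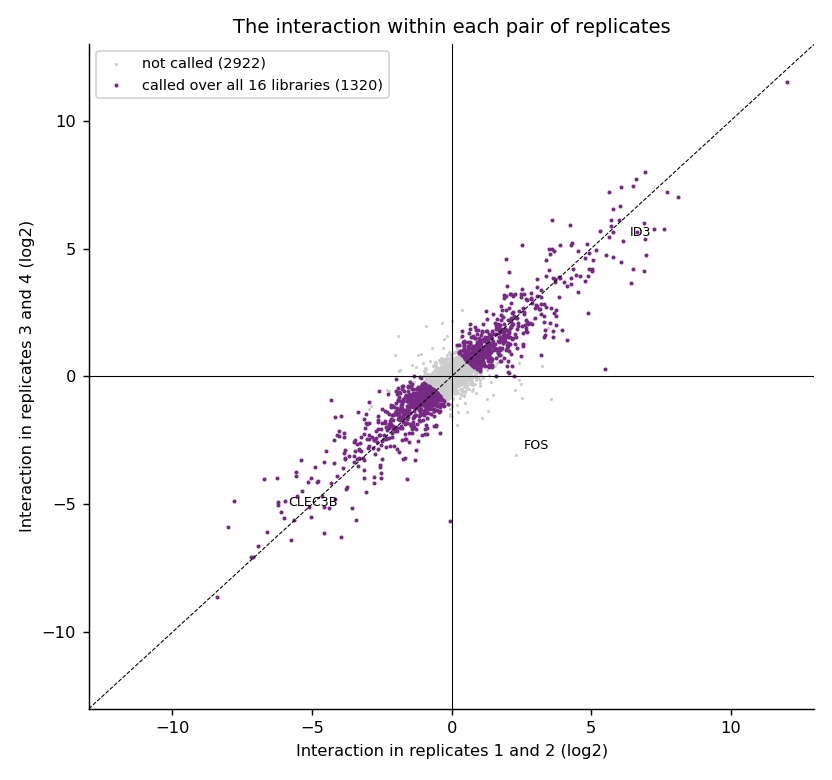
Interaction (log2) computed in replicates 1 and 2 (x axis) and in replicates 3 and 4 (y axis), with 1 point per transcript; the dashed line marks equality. The 1320 transcripts called over the 16 libraries were selected on these same values, so their like signs in both pairs are no separate check. FOS, which was not called, lies at 2.32 and -3.06.

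ID3, ANKRD1 and CCN2 fell with PB1 alone and rose with PB1 in LPS cells. ID3, a helix-loop-helix protein that blocks the DNA binding of its partners and is a standard target of BMP signalling, lies on chromosome 23, 2577964 to 2579597 in GRCg7b. Its normalized signal per 1000000 was 499, 449.7, 513 and 452 in LPS + PB1 libraries against 38.1, 39.4, 56.9 and 60.98 in LPS libraries, and 5.79, 6.104, 5.98 and 7.19 in PB1 libraries against 36.2, 32.997, 27.999 and 34.9 in CTR libraries. PB1 libraries were the lowest of the 16 and LPS + PB1 libraries the highest, with no overlap. The PB1 effect was -2.40 (SE 0.14, adjusted p = 1.2e-09) without LPS and 3.32 (SE 0.14, adjusted p = 6.1e-11) with LPS, and the interaction 5.72 (SE 0.20, adjusted p = 3.2e-12).

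ANKRD1, an ankyrin repeat protein induced by mechanical load (chromosome 6, 20401371 to 20410130), had 95.4, 104, 78.3 and 78.9 in LPS + PB1 libraries against 15.4, 17.04, 12.5 and 11.7 in LPS libraries, and 3.099, 2.001, 1.59 and 2.15 in PB1 libraries against 22.7, 21.8, 6.17 and 8.39 in CTR libraries. Its PB1 libraries were again the lowest and its LPS + PB1 libraries the highest, and the 2 pairs of CTR libraries differed widely. PB1 effects of -2.56 without LPS and 2.66 with LPS gave an interaction of 5.22 (SE 0.49, adjusted p = 2.9e-07). CCN2, also called connective tissue growth factor, is a secreted matricellular protein (chromosome 3, 56836500 to 56839471). It had 8155, 7560.2, 7750.3 and 7033 in LPS + PB1 libraries against 2357, 2695, 2033 and 2071 in LPS libraries, and 409, 444, 478 and 532 in PB1 libraries against 4565, 4716, 3249 and 3208 in CTR libraries. The groups did not overlap, and the interaction was 4.80 (SE 0.19, adjusted p = 1.6e-11), from -3.06 without and 1.74 with LPS.

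CLEC3B, ST8SIA2 and SELENOP1 reversed the other way, rising with PB1 alone and falling with PB1 in LPS cells. CLEC3B encodes tetranectin, a plasminogen-binding C-type lectin (chromosome 2, 43005186 to 43011974), and had 85.1, 80.996, 70.95 and 61.7 in LPS + PB1 libraries against 526, 616, 166 and 152 in LPS libraries, and 1679, 1752, 1776 and 2180.1 in PB1 libraries against 172, 173, 112 and 128 in CTR libraries. Every PB1 library was above every other library and every LPS + PB1 library below. Its PB1 effect was 3.68 (SE 0.35, adjusted p = 3.6e-07) without LPS and -2.02 (SE 0.35, adjusted p = 0.00027) with LPS, with an interaction of -5.70 (SE 0.498, adjusted p = 1.4e-07).

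ST8SIA2, a sialyltransferase that builds polysialic acid (chromosome 10, 14513606 to 14539806), had 0.4505, 1.12, 0.616 and 0.851 in LPS + PB1 libraries against 7.67, 8.77, 10.2 and 9.55 in LPS libraries, and 76.4, 68.8, 81.5 and 82.6 in PB1 libraries against 24.6, 26.3, 23.7 and 25.99 in CTR libraries. The LPS + PB1 libraries were near the lower end of what could be counted, and the other 3 groups were ordered LPS, CTR and PB1 without overlap. Its interaction was -5.27 (SE 0.30, adjusted p = 7.6e-10), from 1.62 without and -3.65 with LPS. SELENOP1, a selenium transport protein (chromosome Z, 14122131 to 14130851), had 6.64, 9.705, 17.7 and 25.4 in LPS + PB1 libraries against 85.6, 71.1, 90.1 and 88.2 in LPS libraries, and 67.9, 60.2, 55.9 and 47.7 in PB1 libraries against 13.2, 13.04, 16.3 and 12.7 in CTR libraries. LPS and PB1 libraries were high, and LPS + PB1 and CTR libraries were low and overlapped. The interaction was -4.74 (SE 0.41, adjusted p = 1.2e-07), from 2.06 without and -2.68 with LPS.

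**Figure D3:**
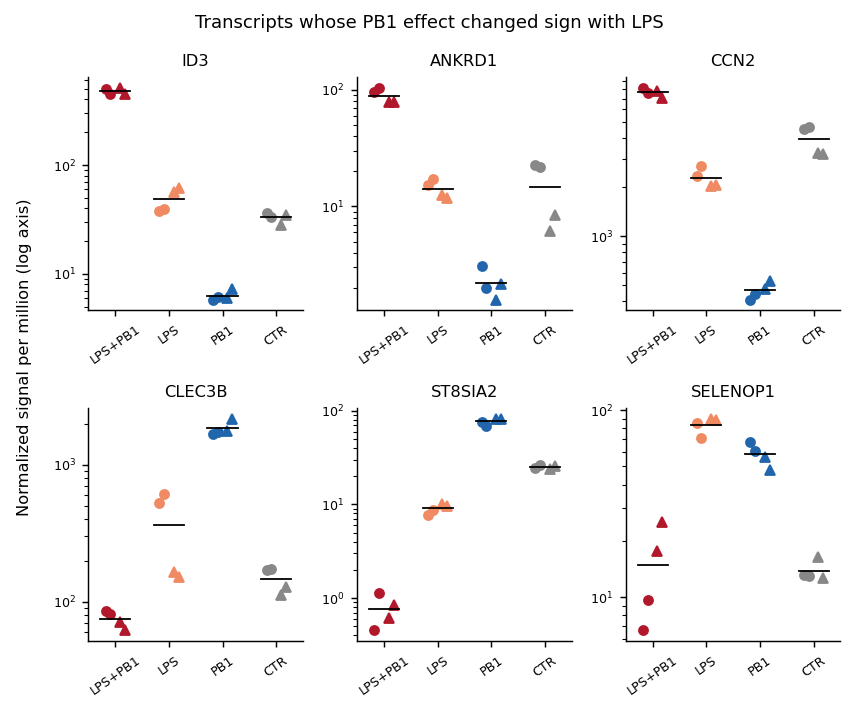
Normalized signal per 1000000 (log y axis) of 6 transcripts in LPS + PB1, LPS, PB1 and CTR libraries; circles are replicates 1 and 2, triangles replicates 3 and 4, and the line is the mean. In ID3, ANKRD1 and CCN2 the PB1 libraries lie below CTR while LPS + PB1 lies above LPS, and in CLEC3B, ST8SIA2 and SELENOP1 the order is turned round.

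In 368 transcripts a PB1 effect was called only without LPS. HOXC10, a posterior homeobox gene, had 152, 156, 141 and 149 in LPS + PB1 libraries against 116, 124, 102 and 95.6 in LPS libraries, and 0.175, 0.4503, 0.209 and 0.196 in PB1 libraries against 4.61, 4.26, 4.92 and 5.31 in CTR libraries. It was high in both groups with LPS, low in CTR libraries and at 0 or 1 read in PB1 libraries. PB1 libraries were at least 5.205-fold lower than CTR libraries, taken against 3 reads in each library, and the fitted interaction of 4.78 (SE 0.31, adjusted p = 5.2e-09) depends on the 1 read added by the authors.

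APCDD1, a membrane inhibitor of WNT signalling, had 8.62, 7.39, 2.46 and 1.93 in LPS + PB1 libraries against 7.21, 10.3, 7.11 and 5.19 in LPS libraries, and 737, 701, 694 and 774 in PB1 libraries against 59.6, 57.2, 106 and 98.3 in CTR libraries. The PB1 libraries stood above the other 12, the CTR libraries came second, and both groups with LPS were low and overlapped. PB1 changed it by 3.23 (SE 0.39, adjusted p = 4.8e-06) without LPS and by -0.79 (SE 0.39, adjusted p = 0.12) with LPS, with an interaction of -4.03 (SE 0.55, adjusted p = 2.0e-05). SFRP1, a secreted WNT antagonist, had 2049, 2177, 1965 and 2103 in LPS + PB1 libraries against 2498, 2427, 3794 and 3828 in LPS libraries, and 1013, 990.0, 870.4 and 841 in PB1 libraries against 176, 169.6, 276 and 298 in CTR libraries. It was lowest in CTR libraries and rose with PB1 only without LPS (2.06), while the change with LPS (-0.56) was below 1.5-fold. The interaction was -2.62 (SE 0.26, adjusted p = 5.9e-07).

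CHAC1, an enzyme that degrades glutathione and a marker of the amino acid and unfolded protein responses, had 44.6, 51.7, 19.8 and 19.8 in LPS + PB1 libraries against 54.5, 57.8, 39.1 and 39.2 in LPS libraries, and 2.22, 3.802, 3.89 and 3.33 in PB1 libraries against 47.3, 41.1, 84.7 and 99.3 in CTR libraries. PB1 libraries were lower than all others, while the LPS + PB1 and LPS groups overlapped. The PB1 effect was -4.30 without LPS and -0.61 with LPS (interaction 3.69 (SE 0.48, adjusted p = 1.1e-05)). RHOJ, a GTPase related to CDC42, had 138, 135, 65.1 and 62.8 in LPS + PB1 libraries against 97.9, 87.7, 40.95 and 40.9 in LPS libraries, and 4.44, 4.503, 4.39 and 5.73 in PB1 libraries against 26.4, 24.4, 36.9 and 35.1 in CTR libraries, with PB1 libraries again lowest. Its interaction was 3.28 (SE 0.44, adjusted p = 1.6e-05), with an adjusted p over pair means of 0.014, as for APCDD1 (0.014). The effect of PB1 on RHOJ with LPS was 0.60 (SE 0.31, adjusted p = 0.14) in the fit without a block. Same-numbered LPS + PB1 and LPS libraries deviated together (correlations of 0.46 to 0.56). So did libraries of the same pair whatever their number (mean 0.51). An alternative chosen after seeing the data took the replicate number as a block among these libraries. The adjusted p was then 0.0020 for RHOJ and 0.018 for APCDD1, so that a PB1 effect with LPS was called in both. This held for 12 of the 368.

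SCD makes monounsaturated fatty acids from saturated ones. It had 199, 207, 215 and 243 in LPS + PB1 libraries against 142, 125, 189.9 and 188 in LPS libraries, and 31.6, 37.4, 47.8 and 47.7 in PB1 libraries against 232, 227, 127 and 114 in CTR libraries. PB1 libraries were the lowest. The change with PB1 was -2.03 without LPS and 0.44 with LPS (adjusted p = 0.12), and the interaction was 2.48 (SE 0.31, adjusted p = 7.1e-06).

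In 324 transcripts a PB1 effect was called only with LPS, and in 200 of these PB1 lowered the transcript. ADH1C, an alcohol dehydrogenase, had 1.69, 0.896, 0.205 and 0.403 in LPS + PB1 libraries against 339, 335, 142 and 129 in LPS libraries, and 6.8999, 5.85, 6.23 and 4.31 in PB1 libraries against 6.72, 6.86, 44.6 and 37.96 in CTR libraries. LPS libraries were the highest and LPS + PB1 libraries the lowest, and of the CTR libraries, replicates 1 and 2 were near the PB1 libraries and replicates 3 and 4 above them. The PB1 effect was -8.49 (SE 0.67, adjusted p = 6.0e-08) with LPS and -1.54 (SE 0.67, adjusted p = 0.080) without, with an interaction of -6.94 (SE 0.95, adjusted p = 1.9e-05). The LPS + PB1 libraries were near the lower end of what could be counted. The sizes -8.49 and -6.94 thus depend in part on the 1 read added by the authors. APOD, a lipocalin that carries small lipids, had 3.94, 3.43, 13.8 and 13.3 in LPS + PB1 libraries against 109, 121, 135 and 127 in LPS libraries, and 5.32, 2.001, 6.895 and 5.97 in PB1 libraries against 1.81, 2.598, 3.17 and 6.85 in CTR libraries. Only the LPS libraries were high, the other 12 being at 13.8 or less, and the interaction was -4.64 (SE 0.70, adjusted p = 5.1e-05).

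MSTN encodes myostatin, a TGF-β family inhibitor of muscle growth. It had 1.18, 1.34, 1.09 and 0.851 in LPS + PB1 libraries against 8.65, 8.49, 10.2 and 9.34 in LPS libraries, and 53.9, 46.7, 53.6 and 44.1 in PB1 libraries against 59.6, 58.4, 32.4 and 29.5 in CTR libraries. PB1 and CTR libraries were high and overlapped, LPS libraries were lower and LPS + PB1 libraries lowest, with an interaction of -3.26 (SE 0.30, adjusted p = 2.9e-07). The LPS + PB1 libraries were near the lower end of what could be counted. The size -3.26 thus depends in part on the 1 read added by the authors. Clusterin (CLU), a secreted chaperone, had 84.9, 80.996, 279 and 274 in LPS + PB1 libraries against 1461, 1579, 1677 and 1609 in LPS libraries, and 421, 427, 392 and 431 in PB1 libraries against 519.8, 496, 794 and 878 in CTR libraries. Its LPS libraries were the highest and its LPS + PB1 libraries the lowest (interaction -2.74 (SE 0.48, adjusted p = 0.00021)).

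PLPP3, a phosphatase of lysophosphatidic acid and related lipids, had 800.5, 789, 629 and 582 in LPS + PB1 libraries against 2937, 2999, 2198 and 2189 in LPS libraries, and 2269, 2307, 2151 and 2281 in PB1 libraries against 1663, 1643, 2360.1 and 2354 in CTR libraries. It was lowest in the 4 LPS + PB1 libraries, and the interaction was -2.07 (SE 0.21, adjusted p = 8.0e-07). UNC5B, a receptor for netrin, went the other way. It had 221, 202, 470.1 and 385 in LPS + PB1 libraries against 61.7, 59.5, 69.2 and 69.95 in LPS libraries, and 56.1, 52.3, 57.3 and 64.3 in PB1 libraries against 70.98, 61.99, 83.7 and 101 in CTR libraries, so that only the LPS + PB1 libraries stood apart, with a PB1 effect of 2.21 (SE 0.22, adjusted p = 8.3e-07) with LPS, -0.45 (SE 0.22, adjusted p = 0.12) without it and an interaction of 2.65 (SE 0.31, adjusted p = 3.4e-06).

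**Figure D4:**
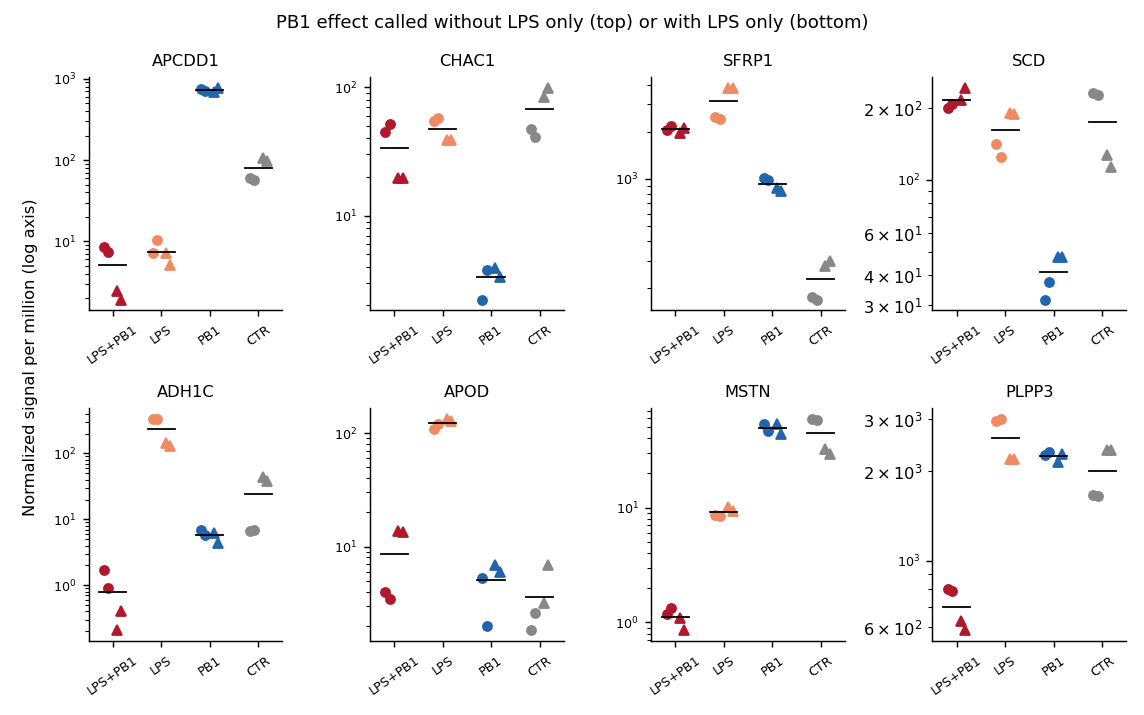
Normalized signal per 1000000 (log y axis) of 8 transcripts in LPS + PB1, LPS, PB1 and CTR libraries; circles are replicates 1 and 2, triangles replicates 3 and 4, and the line is the mean. The upper row shows a PB1 effect called without LPS only, with PB1 apart from CTR, and the lower row one called with LPS only, with LPS + PB1 below LPS.

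Only 54 transcripts with a called interaction moved the same way in both settings. In 15 the PB1 effect was larger with LPS. FOXC2, a forkhead factor of mesenchymal and vascular development, had 54.7, 56.1, 74.6 and 70.9 in LPS + PB1 libraries against 5.53, 8.004, 6.45 and 7.84 in LPS libraries, and 32.5, 30.1, 30.5 and 39.1 in PB1 libraries against 31.3, 24.2, 12.6 and 15.2 in CTR libraries. LPS libraries were lowest, and the rise with PB1 was 3.21 (SE 0.23, adjusted p = 2.1e-08) with LPS and 0.75 (SE 0.23, adjusted p = 0.016) without it, an interaction of 2.46 (SE 0.33, adjusted p = 1.4e-05). Without LPS, PB1 and CTR libraries overlapped in replicates 1 and 2, and PB1 libraries were clearly higher only in replicates 3 and 4. ID4, a relative of ID3, had 9.85, 7.39, 12.04 and 9.63 in LPS + PB1 libraries against 165, 199.7, 208 and 239 in LPS libraries, and 3.099, 2.001, 2.298 and 1.66 in PB1 libraries against 24.1, 23.5, 24.2 and 20.6 in CTR libraries. It was high in LPS cells and fell with PB1 with log2 changes of -4.39 with LPS and -3.39 without (interaction -1.01 (SE 0.26, adjusted p = 0.0045)), unlike ID3, whose effects were opposite.

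The retinaldehyde dehydrogenase ALDH1A3 and the histamine methyltransferase HNMT also fell further with LPS, with interactions of -1.72 (SE 0.41, adjusted p = 0.0028) and -1.24 (SE 0.26, adjusted p = 0.00090). Over pair means, which leave 2 values in a group, their adjusted p was 0.092 and 0.053, and HNMT was -0.55 in replicates 1 and 2 and -1.94 in replicates 3 and 4.

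In 39 transcripts the PB1 effect was smaller with LPS. WISP1, the annotation's name for the matricellular protein CCN4, had 72.8, 77.04, 43.9 and 44.04 in LPS + PB1 libraries against 143, 157, 95.7 and 104 in LPS libraries, and 5.55, 3.35, 8.52 and 9.35 in PB1 libraries against 149, 153, 251 and 213 in CTR libraries. PB1 libraries were the lowest, and the fall was -4.91 without LPS and -1.09 with LPS, an interaction of 3.82 (SE 0.42, adjusted p = 1.8e-06). CH25H, which makes the oxysterol 25-hydroxycholesterol, had 11.5, 10.9, 5.1999 and 6.41 in LPS + PB1 libraries against 21.4, 20.6, 12.02 and 10.8 in LPS libraries, and 4.68, 4.95, 6.895 and 3.57 in PB1 libraries against 74.7, 75.97, 84.996 and 85.6 in CTR libraries. CTR libraries stood above the other 12, and the interaction was 3.09 (SE 0.39, adjusted p = 8.8e-06).

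LSAMP, a neural adhesion protein, fell with PB1 in both settings, with log2 changes of -5.23 without and -2.75 with LPS (interaction 2.48 (SE 0.29, adjusted p = 3.7e-06)), and SLC38A1, a carrier of neutral amino acids, with log2 changes of -3.31 without and -1.02 with LPS (interaction 2.29 (SE 0.39, adjusted p = 0.00016)). MMP10, a matrix metalloproteinase, fell with log2 changes of -4.18 without and -1.92 with LPS (interaction 2.26 (SE 0.32, adjusted p = 2.7e-05)). The transcriptional repressor BHLHE40 had 75.96, 64.7, 101 and 99.3 in LPS + PB1 libraries against 148, 168, 139.6 and 146 in LPS libraries, and 5.32, 5.65, 9.69 and 9.35 in PB1 libraries against 56.1, 43.9, 37.7 and 45.1 in CTR libraries. It was lowest in PB1 libraries and highest in LPS libraries, with an interaction of 1.81 (SE 0.28, adjusted p = 6.5e-05).

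Curated mRNAs had a called interaction in 355 of 1211 (29.3%), predicted mRNAs in 895 of 2804 (31.9%), predicted noncoding RNAs in 69 of 219 (31.5%) and curated noncoding RNAs in 1 of 8. These shares lie near the 31.8% of all tested. The predicted mRNA XM_040692907.2 had 35.02, 45.5, 45.02 and 46.4 in LPS + PB1 libraries against 109, 108, 123 and 103 in LPS libraries, and 547, 599, 552 and 672 in PB1 libraries against 12.7, 12.8, 13.8 and 16.003 in CTR libraries. PB1 libraries were the highest and CTR libraries the lowest (interaction -6.79 (SE 0.15, adjusted p = 1.0e-14)). XM_046928513.1 was present almost only in PB1 libraries, with 73.1, 74.3, 68.1 and 84.7, against 1.37, 0.468, 1.42 and 0.704 in CTR libraries, which held 5 reads or fewer. Every library of both groups with LPS held 3 reads or fewer.

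The predicted noncoding RNA XR_005849533.2 had 40.4, 30.4, 15.7 and 22.1 in LPS + PB1 libraries against 3.58, 1.74, 1.54 and 1.297 in LPS libraries, and 0.643, 0.2001, 0.4597 and 0.9297 in PB1 libraries against 111, 105, 135 and 158 in CTR libraries. PB1 libraries held 3 reads or fewer and were at least 139-fold lower than CTR libraries, while LPS + PB1 libraries were higher than LPS libraries in every case. The predicted mRNA XM_040690242.2 had 90.8, 88.9, 63.02 and 65.5 in LPS + PB1 libraries against 2.65, 4.25, 3.97 and 5.397 in LPS libraries, and 8.89, 8.81, 7.61 and 9.102 in PB1 libraries against 71.9, 68.4, 94.2 and 83.3 in CTR libraries, high in LPS + PB1 and CTR libraries and low in the other 2 groups, with an interaction of 7.47 (SE 0.27, adjusted p = 3.2e-12).

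Among gene groups, the HOX genes included several with opposite or one-sided PB1 effects. HOX genes encode homeodomain factors that set position along the body axis, and cultured fibroblasts tend to keep the HOX pattern of their origin. Of 14 matched HOX genes, 8 reached the minimum level, and the interaction was called in these 8, 6 positive and 2 negative, whereas 31.8% of all tested were called. HOXA3 and HOXA13 reached that level in the PB1 group alone, and HOXB8 and HOXC10 in the groups with LPS alone. The level filter itself thus favoured genes that differ between groups. Of the 3 tested below that level, HOXA4 was not called (interaction -0.26 (SE 0.28, adjusted p = 0.49)), while HOXA6 (-1.60 (SE 0.38, adjusted p = 0.0024)) and HOXD1 (-0.83 (SE 0.25, adjusted p = 0.013)) were. HOXB5 had 14.5, 14.9, 18.2 and 18.7 in LPS + PB1 libraries against 18.1, 21.6, 17.1 and 15.5 in LPS libraries, and 0.175, 0.4503, 0.209 and 0.196 in PB1 libraries against 22.01, 16.1, 23.999 and 28.5 in CTR libraries. It was at the floor of 3 reads or fewer in PB1 libraries alone, which were at least 24.7-fold lower than CTR libraries. HOXB8 had 24.4, 26.4, 19.98 and 23.6 in LPS + PB1 libraries against 26.04, 23.4, 17.1 and 20.4 in LPS libraries, and 0.175, 0.2001, 0.209 and 0.196 in PB1 libraries against 2.75, 2.13, 2.17 and 2.75 in CTR libraries, likewise at the floor in PB1 libraries, at least 2.67-fold lower than CTR libraries.

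HOXA13, the most posterior gene of its cluster, ran the other way with 0.4505, 0.896, 0.411 and 0.627 in LPS + PB1 libraries against 1.44, 0.49003, 0.882 and 0.623 in LPS libraries, and 18.2, 18.1, 12.5 and 11.01 in PB1 libraries against 2.304, 2.598, 2.17 and 2.497 in CTR libraries. It was high in PB1 libraries only. HOXA3 rose with PB1 without LPS (1.19) and fell with it in LPS cells, with a log2 change of -0.81 (SE 0.22, adjusted p = 0.0081). HOXA11 rose in both settings, with log2 changes of 1.17 without and 2.05 with LPS (interaction 0.87 (SE 0.25, adjusted p = 0.011)), and HOXD4 fell only without LPS, with a log2 change of -1.19 (interaction 1.23 (SE 0.29, adjusted p = 0.0027)). The call of HOXC9 (interaction 0.89 (SE 0.33, adjusted p = 0.035)) was lost without LPS + PB1 replicate 1 or 2, LPS replicate 3 or 4, PB1 replicate 1, 3 or 4, or CTR replicate 2 or 4, with interactions of 0.72 to 0.90 and adjusted p of 0.050 to 0.076. Over pair means, 6 of the 8 kept an adjusted p of 0.05 or less, HOXC9 (0.21) and HOXA11 (0.12) being the exceptions.

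Other developmental transcription factors had a called interaction in 12 of 18 (66.7%, against 31.8% of all tested), 8 positive and 4 negative. SOX6 and SOX11 entered through their level in CTR libraries alone. SOX9, the master regulator of cartilage, had 74.9, 66.6, 119 and 95.7 in LPS + PB1 libraries against 27.2, 26.6, 30.7 and 35.3 in LPS libraries, and 2.87, 2.45, 4.39 and 2.84 in PB1 libraries against 19.7, 22.3, 21.5 and 18.3 in CTR libraries. PB1 libraries were lowest and LPS + PB1 libraries highest (interaction 4.28 (SE 0.27, adjusted p = 2.7e-09)). ZIC1, a zinc finger factor of neural and somite development, had 12.1, 10.9, 13.8 and 12.5 in LPS + PB1 libraries against 0.697, 1.74, 0.441 and 0.623 in LPS libraries, and 32.1, 31.02, 33.7 and 41.5 in PB1 libraries against 39.7, 37.7, 40.3 and 48.4 in CTR libraries. It was nearly absent in LPS libraries alone, and its interaction was 4.28 (SE 0.41, adjusted p = 3.7e-07). The size of the ZIC1 interaction thus depends in part on the 1 read added by the authors.

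SOX6 and SOX11 were detected at a substantial level in CTR libraries only. SOX6 had 0.732, 0.448, 0.411 and 0.627 in LPS + PB1 libraries against 0.697, 0.9801, 0.441 and 1.297 in LPS libraries, and 0.175, 0.2001, 0.209 and 0.4404 in PB1 libraries against 10.6, 14.97, 12.8 and 11.5 in CTR libraries, and PB1 libraries were at least 13.6-fold lower than CTR libraries. SOX11 had 0.225, 0.672, 1.98 and 1.93 in LPS + PB1 libraries against 0.697, 0.708, 2.65 and 1.04 in LPS libraries, and 0.643, 0.2001, 0.4597 and 0.9297 in PB1 libraries against 20.6, 18.8, 16.1 and 15.2 in CTR libraries, at least 19.3-fold lower in PB1 than in CTR libraries. In both genes LPS libraries were already low, and the LPS + PB1 and LPS groups overlapped. FOXL2, a forkhead factor of the ovary, rose with PB1 without LPS (0.90) and fell with it in LPS cells (-1.19) (interaction -2.09 (SE 0.19, adjusted p = 2.0e-07)). TBX18 rose only without LPS, with a log2 change of 1.95 (interaction -2.04 (SE 0.17, adjusted p = 8.7e-08)), and MEIS2, a partner of HOX proteins, fell only without LPS, with a log2 change of -1.99 (interaction 1.78 (SE 0.34, adjusted p = 0.00045)).

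**Figure D5:**
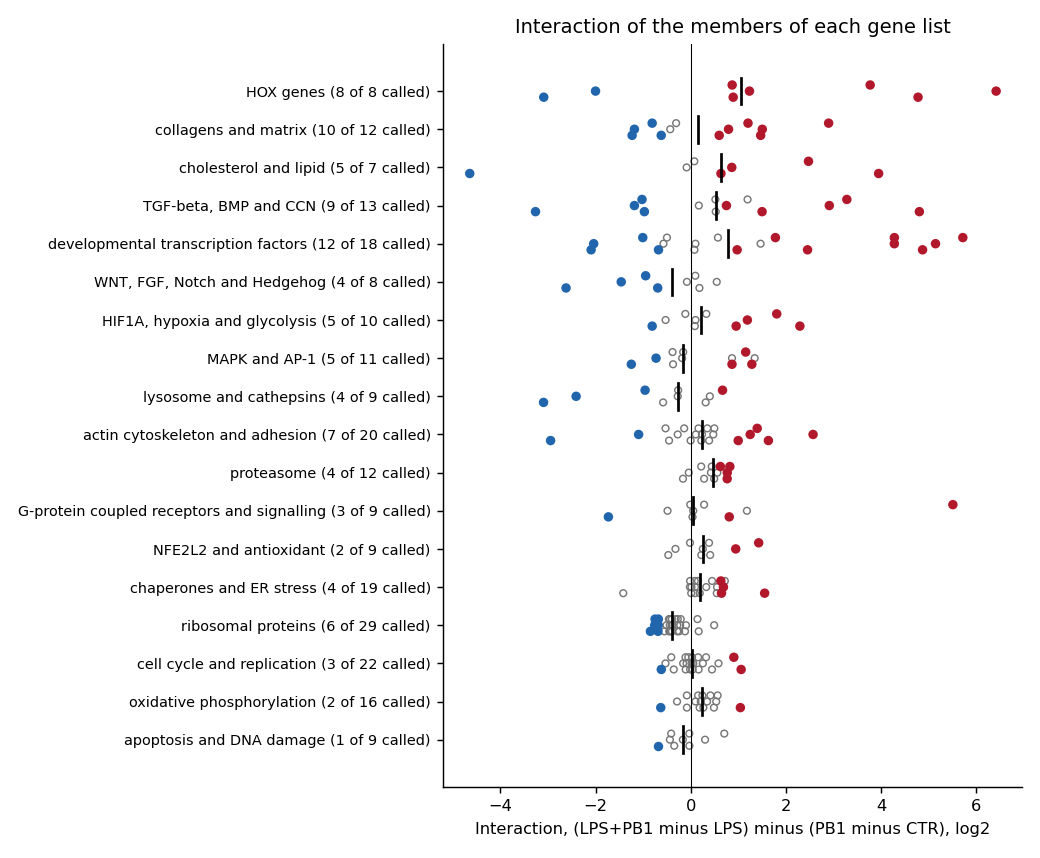
Interaction (x axis, log2) of each member of the gene lists with at least 7 members; filled points were called (red positive, blue negative), open points were not, and the bar is the list median. HOX genes, matrix genes and TGF-β genes have wide spreads, whereas ribosomal proteins lie in a narrow band mostly below 0.

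Genes of the TGF-β, BMP and CCN families, secreted signals and matricellular proteins with their modulators, had a called interaction in 9 of 13 (69.2%, against 31.8% of all tested), 5 positive and 4 negative. MSTN reached the minimum level in the PB1 and CTR groups alone, and NOG in the LPS + PB1 and CTR groups alone. Beside CCN2, the BMP antagonist NOG (noggin) had 12.1, 15.98, 19.98 and 20.2 in LPS + PB1 libraries against 7.44, 6.75, 10.4 and 11.7 in LPS libraries, and 2.397, 3.35, 5.31 and 3.82 in PB1 libraries against 11.8, 11.8, 16.6 and 17.8 in CTR libraries, and BAMBI, a decoy receptor of the same pathway, had 39.7, 41.95, 47.1 and 49.9 in LPS + PB1 libraries against 15.9, 14.05, 19.6 and 20.2 in LPS libraries, and 9.36, 6.75, 5.06 and 5.97 in PB1 libraries against 26.7, 26.8, 23.5 and 22.9 in CTR libraries. Both were lowest in PB1 libraries and rose with PB1 in LPS cells, with interactions of 2.91 (SE 0.36, adjusted p = 7.0e-06) and 3.28 (SE 0.24, adjusted p = 1.6e-08). CYR61 (CCN1) fell with PB1 only without LPS, with a log2 change of -0.998 (interaction 1.5001 (SE 0.26, adjusted p = 0.00023)), and so did FSTL1, with a log2 change of -0.80 (interaction 0.75 (SE 0.13, adjusted p = 0.00024)). SMAD3, which carries the TGF-β signal to the nucleus, rose with PB1 only without LPS, with a log2 change of 0.60 (interaction -0.97 (SE 0.12, adjusted p = 6.6e-06)). CCN3 rose with PB1 in both settings, with log2 changes of 1.68 without and 2.21 with LPS, and its interaction of 0.53 (SE 0.20, adjusted p = 0.039) was below 1.5-fold. It was called at 0.61 or 0.62 without LPS + PB1 replicate 3, LPS replicate 4 or CTR replicate 4. Over pair means 6 of the 9 calls held.

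Collagens and other matrix genes were called in 10 of 12 (83.3%, against 31.8% of all tested), 6 positive and 4 negative. Over pair means, where 857 of the 4242 were called, 2 of the 10 kept an adjusted p of 0.05 or less. TGFBI, a secreted matrix protein induced by TGF-β, had 18374, 16999, 6009 and 5552 in LPS + PB1 libraries against 6609.8, 7078, 2958 and 2807 in LPS libraries, and 4619, 4735, 4709 and 5259 in PB1 libraries against 16287, 15939.6, 15010.0 and 15995 in CTR libraries. Within each pair the LPS + PB1 libraries were above the LPS libraries, but those of replicates 3 and 4 were below the LPS libraries of replicates 1 and 2. Its interaction was 2.90 (SE 0.52, adjusted p = 0.00029). COL1A2 and SPARC, the collagen I α2 chain and a collagen-binding glycoprotein, fell with PB1 only without LPS, with log2 changes of -1.41 and -1.45, with interactions of 1.20 (SE 0.25, adjusted p = 0.00093) and 1.505 (SE 0.30, adjusted p = 0.00068). P3H1, a collagen prolyl hydroxylase, did the same, with a log2 change of -1.17 (interaction 1.47 (SE 0.21, adjusted p = 2.9e-05)).

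COL6A2 and decorin (DCN) fell with PB1 only with LPS, with log2 changes of -1.04 and -1.502, with interactions of -1.23 (SE 0.26, adjusted p = 0.0011) and -1.18 (SE 0.25, adjusted p = 0.00097). COL3A1 fell in both settings, with log2 changes of -1.87 without and -1.08 with LPS. Its interaction of 0.79 (SE 0.27, adjusted p = 0.024) lost its call without LPS replicate 3 or 4, PB1 replicate 1 or CTR replicate 3 or 4, at 0.67 to 0.75 and adjusted p of 0.050 to 0.055. Over pair means the adjusted p was 0.13 for COL1A2, 0.070 for SPARC, 0.093 for COL6A2, 0.074 for DCN and 0.24 for COL3A1, against 0.043 for TGFBI and 0.017 for P3H1. TIMP3, an inhibitor of metalloproteinases, had 5449, 5633, 9357 and 9433 in LPS + PB1 libraries against 3204, 3336, 3402 and 3371 in LPS libraries, and 865, 858, 839 and 864 in PB1 libraries against 1522, 1508, 1303 and 1277 in CTR libraries. It was lowest in PB1 and highest in LPS + PB1 libraries, with an interaction of 1.82 (SE 0.22, adjusted p = 4.4e-06).

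Actin and adhesion genes were called in 7 of 20 (5 positive, 2 negative), a share near that of all tested. β-actin itself (ACTB) fell with PB1 without LPS (-0.69) and rose with it in LPS cells (0.71) (interaction 1.40 (SE 0.25, adjusted p = 0.00025)). The Arp2/3 subunit ARPC5 and the GTPase RHOB behaved in the same way, with interactions of 1.25 (SE 0.17, adjusted p = 1.8e-05) and 2.57 (SE 0.27, adjusted p = 1.3e-06). The actin crosslinker ACTN1 fell only without LPS, with a log2 change of -1.14 (interaction 1.63 (SE 0.38, adjusted p = 0.0021)). The adhesion receptor subunit ITGB3 had 11.5, 10.2, 9.51 and 7.48 in LPS + PB1 libraries against 31.1, 35.4, 30.9 and 29.2 in LPS libraries, and 58.2, 58.9, 42.7 and 47.7 in PB1 libraries against 19.5, 17.6, 25.5 and 27.2 in CTR libraries. It reversed in the other direction, with an interaction of -2.94 (SE 0.23, adjusted p = 3.6e-08), and FSCN1, which bundles actin, fell only with LPS, with a log2 change of -1.01 (interaction -1.09 (SE 0.14, adjusted p = 1.2e-05)). Over pair means 5 of the 7 held, with an adjusted p of 0.055 for ACTB and 0.082 for ACTN1.

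Of the genes that sense and relay LPS and viral RNA, few could be matched. Of 44 listed genes of NF-κB and Toll-like receptor signalling 4 were measured, and 3 were called (1 positive, 2 negative), where 31.8% of all tested were called. IRAK2 reached the minimum level in the PB1 group alone and TLR3 in the LPS and PB1 groups alone, so the level filter itself favoured genes that differ between groups. TLR3, the receptor for double-stranded RNA, had 6.36, 6.72, 6.36 and 6.23 in LPS + PB1 libraries against 18.8, 13.8, 18.9 and 20.2 in LPS libraries, and 9.999, 11.3, 12.2 and 13.9 in PB1 libraries against 5.78, 6.13, 8.92 and 6.85 in CTR libraries. It rose with PB1 alone and fell with PB1 in LPS cells, with an interaction of -2.25 (SE 0.23, adjusted p = 8.1e-07). IFIH1, the cytosolic sensor MDA5, had 4.39, 2.99, 4.04 and 4.93 in LPS + PB1 libraries against 19.2, 21.3, 24.5 and 26.99 in LPS libraries, and 11.6, 14.7, 10.6 and 11.01 in PB1 libraries against 10.9, 10.4, 10.8 and 10.9 in CTR libraries. PB1 and CTR libraries overlapped, LPS libraries were the highest and LPS + PB1 libraries the lowest (interaction -2.65 (SE 0.23, adjusted p = 1.4e-07)).

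NFKBIZ, a nuclear IκB protein that governs secondary NF-κB targets, had 29.6, 25.98, 26.1 and 23.2 in LPS + PB1 libraries against 32.8, 36.4, 42.3 and 47.3 in LPS libraries, and 2.22, 4.05, 5.52 and 5.24 in PB1 libraries against 37.8, 37.3, 28.9 and 27.7 in CTR libraries. PB1 libraries were far below all others, with a PB1 effect of -3.02 without LPS. Every LPS + PB1 library was below every LPS library, but this change of -0.59 (adjusted p = 0.0505) was not called. The interaction was 2.43 (SE 0.32, adjusted p = 1.4e-05). IRAK2, a kinase of the Toll-like receptor complex, was raised by PB1 only without LPS, with a log2 change of 1.40 (interaction -1.55 (SE 0.31, adjusted p = 0.00071)). TRIM25, a ubiquitin ligase of the RIG-I pathway, had an interaction of -0.91 (SE 0.20, adjusted p = 0.0015) while neither PB1 effect reached 1.5-fold, at 0.46 without and -0.45 with LPS. Over pair means its adjusted p was 0.074.

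IL6 had 359, 399.5, 310.4 and 313 in LPS + PB1 libraries against 295, 275, 242 and 267 in LPS libraries, and 309, 323, 302 and 298 in PB1 libraries against 288, 311, 239 and 241 in CTR libraries. Its interaction was 0.15 (SE 0.14, adjusted p = 0.40), with a 95% interval of -0.14 to 0.45. In the MAPK and AP-1 list 5 of 11 were called (45.5%, against 31.8% of all tested), 3 positive and 2 negative, and over pair means 1 of the 5 held. The phosphatase DUSP4 fell with PB1 without LPS, with a log2 change of -1.64 (interaction 1.16 (SE 0.25, adjusted p = 0.0014), 0.065 over pair means). With LPS its fall of -0.48 (adjusted p = 0.042) was below 1.5-fold. JUN had an interaction of -0.38 (SE 0.13, adjusted p = 0.027), below 1.5-fold.

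The immediate early genes FOS and EGR1 showed opposite interactions in the pairs. FOS had 23.9, 25.98, 30.4 and 27.9 in LPS + PB1 libraries against 12.5, 10.02, 95.5 and 87.1 in LPS libraries, and 11.3, 9.06, 14.5 and 14.1 in PB1 libraries against 22.7, 23.02, 4.92 and 5.83 in CTR libraries. In replicates 1 and 2 its LPS libraries were below the LPS + PB1 libraries, and in replicates 3 and 4 they were the highest of all. The interaction was 2.32 in the first pair, -3.06 in the second and -0.37 (SE 0.94, adjusted p = 0.79) over all libraries. EGR1 had 187, 174, 281 and 270.5 in LPS + PB1 libraries against 109, 121, 636 and 595 in LPS libraries, and 170.1, 142, 65.4 and 64.8 in PB1 libraries against 1203, 1157, 70.6 and 87.6 in CTR libraries. Its interaction was 3.56 in replicates 1 and 2 and -0.88 in replicates 3 and 4, and 1.34 (SE 1.20, adjusted p = 0.39) overall.

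HIF1A, the oxygen-regulated subunit of hypoxia-inducible factor and a gene the study centred on, was lowered by PB1 in both settings. It had 1425, 1301, 1035 and 1068 in LPS + PB1 libraries against 2912, 3344, 1671 and 1809.9 in LPS libraries, and 998, 948, 1010.4 and 966 in PB1 libraries against 2109, 2114, 1946 and 1949 in CTR libraries. LPS + PB1 libraries were below LPS libraries and PB1 libraries below CTR libraries throughout. PB1 changed it by -1.05 (SE 0.18, adjusted p = 0.00016) without LPS and by -0.96 (SE 0.18, adjusted p = 0.00042) with LPS. The interaction was 0.09 (SE 0.25, adjusted p = 0.82), and its 95% interval of -0.44 to 0.62 includes both signs.

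Its relative EPAS1 (HIF-2α) differed, with 1432, 1326, 1672 and 1500.0 in LPS + PB1 libraries against 607, 655, 924 and 914 in LPS libraries, and 517, 489, 501 and 550.1 in PB1 libraries against 1137, 1164, 1427 and 1502 in CTR libraries. It fell with PB1 without LPS (-1.34) and rose with it in LPS cells (0.96) (interaction 2.29 (SE 0.19, adjusted p = 7.2e-08)). In the hypoxia and glycolysis list 5 of 10 were called (31.8% of all tested), 4 positive and 1 negative, and 2 of the 5 held over pair means, EPAS1 and BHLHE40. The glycolytic enzyme ENO1 had an interaction of 0.96 (SE 0.19, adjusted p = 0.00073) (0.067 over pair means), and the glucose carrier SLC2A1 fell with PB1 in both settings, with log2 changes of -0.94 without and -1.47 with LPS. Its interaction of -0.53 (SE 0.24, adjusted p = 0.085) was not called. It was called at -0.64 without LPS + PB1 replicate 1, at -0.62 without LPS replicate 3 and at -0.66 without LPS replicate 4.

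NFE2L2 (NRF2), the main activator of antioxidant genes, had an interaction of 0.25 (SE 0.13, adjusted p = 0.11) with a 95% interval of -0.01 to 0.52. Of 9 measured genes in its list 2 were called (22.2%, against 31.8% of all tested), both positive. Peroxiredoxin PRDX6 had 661, 696, 384 and 418 in LPS + PB1 libraries against 391, 379, 346 and 338 in LPS libraries, and 375, 361, 372 and 372 in PB1 libraries against 722, 719.6, 629 and 706 in CTR libraries. It fell with PB1 without LPS, with a log2 change of -0.91, and its change of 0.52 with LPS was below 1.5-fold (interaction 1.43 (SE 0.21, adjusted p = 4.2e-05)). The thioredoxin reductase TXNRD1 had an interaction of 0.95 (SE 0.20, adjusted p = 0.0012) (0.076 over pair means). SLC40A1 encodes ferroportin, the cellular iron exporter, and was the called gene among 5 of heme and iron metabolism (20%, against 31.8% of all tested). It had 12.3, 12.99, 16.1 and 18.9 in LPS + PB1 libraries against 68.7, 62.8, 136 and 145 in LPS libraries, and 7.13, 6.75, 6.23 and 5.97 in PB1 libraries against 2.304, 2.81, 6.92 and 4.03 in CTR libraries. It was high in LPS libraries only, with an interaction of -3.52 (SE 0.45, adjusted p = 8.8e-06).

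Lysosomal genes were called in 4 of 9 (44.4%, against 31.8% of all tested), 1 positive and 3 negative, and the negative 3 were cathepsins. A further cathepsin, CTSD, was not called, with an interaction of 0.31 (SE 0.22, adjusted p = 0.27). CTSC, which activates granule serine proteases, had 60.4, 65.2, 42.97 and 45.3 in LPS + PB1 libraries against 267, 251, 175 and 189 in LPS libraries, and 1060.1, 1063, 1185 and 1159 in PB1 libraries against 436, 443, 677 and 647 in CTR libraries. The groups were ordered PB1, CTR, LPS and LPS + PB1 without overlap, and the interaction was -3.09 (SE 0.25, adjusted p = 4.7e-08). The collagen-degrading CTSK rose with PB1 without LPS (0.69) and fell with it in LPS cells (-1.72) (interaction -2.41 (SE 0.25, adjusted p = 8.6e-07)). CTSO fell only with LPS, with a log2 change of -1.11 (interaction -0.96 (SE 0.15, adjusted p = 5.7e-05)).

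In lipid metabolism 5 of 7 were called (71.4%, against 31.8% of all tested), 4 positive and 1 negative, the negative one being APOD. APOD reached the minimum level in the LPS group alone and ELOVL2 in the CTR group alone, so the level filter itself favoured genes that differ between groups. ELOVL2, an elongase of polyunsaturated fatty acids, fell with PB1 only without LPS, with a log2 change of -3.42 (interaction 3.95 (SE 0.35, adjusted p = 1.5e-07)), as did SCD. Mean ELOVL2 signal was 1.01 in PB1 libraries, near the lower end of what could be counted. The sizes -3.42 and 3.95 thus depend in part on the 1 read added by the authors. PPARG, the regulator of fat storage, fell with log2 changes of -2.01 without and -1.15 with LPS (interaction 0.86 (SE 0.23, adjusted p = 0.0052), 0.10 over pair means).

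Among G-protein coupled receptors and their signalling partners 3 of 9 were called (33.3%), a share near the 31.8% of all tested. EDNRA, a receptor for endothelin, had 29.1, 30.2, 21.6 and 22.1 in LPS + PB1 libraries against 5.53, 5.01, 7.77 and 7.37 in LPS libraries, and 1.52, 1.101, 0.4597 and 1.17 in PB1 libraries against 8.58, 9.98, 12.6 and 13.7 in CTR libraries. PB1 libraries were lowest and LPS + PB1 libraries highest (interaction 5.51 (SE 0.42, adjusted p = 3.1e-08)). The PB1 libraries were near the lower end of what could be counted. The size 5.51 thus depends in part on the 1 read added by the authors. PTGER2, a prostaglandin E2 receptor, rose with PB1 in both settings, with log2 changes of 2.47 without and 0.74 with LPS (interaction -1.73 (SE 0.26, adjusted p = 4.9e-05)). GNAI1, an inhibitory G protein subunit, fell with PB1 without LPS, with a log2 change of -1.14 (interaction 0.81 (SE 0.17, adjusted p = 0.00097)). With LPS its fall of -0.33 (adjusted p = 0.038) was below 1.5-fold. The receptor for gastrin-releasing peptide, GRPR, fell with PB1 in both settings, with log2 changes of -3.54 without and -3.50 with LPS. Its interaction of 0.04 (SE 0.52, adjusted p = 0.97) had a 95% interval of -1.06 to 1.13. Mean GRPR signal was 0.59 in LPS + PB1 and 6.83 in LPS libraries, and 2.67 in PB1 and 34.5 in CTR libraries. The LPS + PB1 mean was near the lower end of what could be counted. The size -3.50 and the interaction thus depend in part on the read added by the authors. Whether the PB1 effects on GRPR were equal therefore cannot be read from these values.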

How the data were processed

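RNA-seq was measured in 16 libraries of HD11 cells. According to the methods and the submitters' processing notes, HISAT2 was the aligner, GRCg7b the genome and HTSeq the read counter of the authors. The deposited table gives a scaled signal for each transcript, namely the reads plus 1, times a step of each library (2.97 to 5.53) and rounded down. At least 99.86% of values in each library lay on the step, within 1 deposited unit, and dividing by it gave the reads. Symbols came from the RefSeq annotation of GRCg7b by accession, 1697 of 6492 matched and 0 of 4790 predicted accessions. Gene coordinates are spans in that build.

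The signal was divided by the library total times a TMM factor and multiplied by 1000000, and log2 was taken with no further pseudocount. Transcripts passed a low-value filter (minimum count 10), and all 16 libraries entered 1 fit in limma (version 3.58.1, R 4.3.3, lmFit and eBayes with a trend), with 4 group means and no covariate. TMM, RLE and the filter were written anew in R after the published algorithms. TMM and the filter, but not RLE, were tested on simulated data with the fit. The p-values were adjusted over 4651 transcripts by the Benjamini-Hochberg method. Values are means or single libraries, with SE from the fit. The 95% intervals use its residual degrees of freedom plus those of the eBayes prior (16.1 together). A group with 3 reads or fewer in every library was at the floor, and bounds against it cover counting error only. The level of 1 of the 3 matched macrophage markers is not reported here. The planned count tests were left out because the values are scaled, rounded signal.

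Named transcripts were the largest interactions of each class with a symbol, a maximum group mean of at least 50 per 1000000 and the same sign in both pairs of replicates, up to 6 per class, a set of genes the study discussed where matched to a symbol and tested, 2 unnamed transcripts in each direction, and members of gene lists. Of the set from the study, STAT2, FOSL1, GCLM, SOD2, HMGA2, STEAP4 and EPSTI1 were not among the matched and tested transcripts and have no result here. The members and lists were chosen with earlier results of these data known. Alternatives were other scalings, filters, an added read, a replicate block (over all libraries, or among those with LPS), each pair of replicates alone, pair means, each library left out and no size limit.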

Additional observations from a re-analysis of the deposited data

Results flagged for a closer look

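The PB1 effect differed with LPS in 1320 transcripts by the test of the interaction itself, and in 214 of them both PB1 effects were called in opposite directions. The single transcripts behind these counts are described above.

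In 172 groups of 4 libraries of the 44 transcripts looked at, 3 held a library set apart from the others. Chance alone would set apart about 1 group in 20 if the 4 libraries were independent. These libraries formed pairs, so the count of 3 cannot be judged against that rate. SELENOP1 was 16.3 per 1000000 in CTR replicate 3, against 12.7 to 13.2 in the other CTR libraries. RHOJ was 5.73 in PB1 replicate 4, against 4.39 to 4.50 in the other PB1 libraries. The predicted mRNA XM_040692907.2 was 35.02 in LPS + PB1 replicate 1, against 45.0 to 46.4 in the other LPS + PB1 libraries.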

How the results depend on the processing

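The alternatives gave 1244 to 1370 called interactions when each library was left out in turn, 789 to 821 PB1 effects without LPS, 768 to 820 with LPS, and 200 to 229 opposite pairs of effects. Pair means gave 857 interactions, 520 PB1 effects with LPS and 113 opposite pairs, with 2 values in a group. Without a limit on the size of the change, 1601 PB1 effects were called without LPS, 1687 with LPS and 529 opposite pairs. Scaling by library totals alone moved the median interaction over all tested to -0.08 and the split to 536 positive and 764 negative, against 623 and 697. The replicate block gave 1336 interactions. Between LPS + PB1 and LPS, same-numbered libraries correlated at 0.46 to 0.56, and 2 of the 4 LPS + PB1 libraries correlated best with their own number. The mean over all libraries of the same pair was 0.51. Between LPS and CTR the correlation pooled over all same-numbered libraries was -0.12, so the numbers did not pair all 4 groups. With the replicate block among the libraries with LPS alone, added after seeing the data, 1390 interactions, 823 PB1 effects with LPS (all 783 included) and 232 opposite pairs were called, and neither block ended an interaction call in any of the 100 transcripts named.

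Of those 100, the call was lost in 18 over pair means, and in 2 each in replicates 1 and 2 and in replicates 3 and 4. Uncalled interactions changed sign in 5 transcripts. FOS was 2.32 in replicates 1 and 2 and ranged over -0.93 to 0.16 as each library was left out, with positive values without LPS replicate 3 or 4 or CTR replicate 3. HIF1A was -0.090 in replicates 1 and 2 and ranged over -0.072 to 0.26, negative without LPS replicate 3 or 4. IL6 was -0.019 and EGR1 -0.88 in replicates 3 and 4. GRPR was -0.036 with library totals, -0.49 in replicates 3 and 4 and ranged over -0.24 to 0.31. The cause was not tested. The planned count tests, edgeR and DESeq2, were not run, because the deposited values are scaled and rounded signal and not counts. Transcripts at 3 reads or fewer limit folds to lower bounds.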

Other observations

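Of 29 ribosomal proteins, 26 had a negative and 3 a positive interaction, with a median of -0.40 against 0.01 over all 4242 transcripts. The adjusted p was at most 0.05 in 21 of the 29, against 1929 of all 4242 transcripts. Of the 29, 6 also reached 1.5-fold (20.7%, against 31.8% of all tested), all 6 negative. RPS4Y1, the annotation's symbol at this accession, fell with PB1 only with LPS (-0.74), with an interaction of -0.85 (SE 0.12, adjusted p = 2.6e-05). RPL9 and RPS6 had interactions of -0.76 (SE 0.15, adjusted p = 0.00054) and -0.68 (SE 0.15, adjusted p = 0.0012), with no PB1 effect of 1.5-fold in either setting, and RPS6 was 0.065 over pair means. Ribosomal protein genes can share reads with near-identical copies, which was not tested.

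Proteasome subunits leaned the other way, 10 of 12 positive, with a median of 0.47, and 4 were called (33.3%, near the 31.8% of all tested). PSMD2, a subunit of the regulatory particle, had 798, 734, 848 and 752 in LPS + PB1 libraries against 552, 559.8, 552 and 541 in LPS libraries, and 443, 456, 520.5 and 539 in PB1 libraries against 616, 607, 588 and 625 in CTR libraries, with LPS + PB1 libraries the highest (interaction 0.82 (SE 0.10, adjusted p = 5.4e-06)). Of 19 chaperones 16 were positive and 4 called (21.1%, against 31.8% of all tested). HSPA2, a member of the heat shock 70 family, had 252, 233, 232 and 201 in LPS + PB1 libraries against 50.4, 65.3, 77.002 and 67.1 in LPS libraries, and 56.8, 59.8, 64.4 and 75.3 in PB1 libraries against 56.1, 53.4, 47.2 and 53.7 in CTR libraries. Only the LPS + PB1 libraries stood apart, and the interaction was 1.55 (SE 0.17, adjusted p = 1.7e-06). Oxidative phosphorylation genes were called in 2 of 16 (12.5%, against 31.8% of all tested), 1 positive and 1 negative. These were cytochrome c (CYCS, 1.04 (SE 0.17, adjusted p = 0.00014)) and UQCRB (-0.63 (SE 0.18, adjusted p = 0.010)). Cell cycle genes were called in 3 of 22 (13.6%, against the same 31.8%), with a median of 0.02. CDK6, a kinase of the G1 phase, rose with PB1 only with LPS (0.62), with an interaction of 1.06 (SE 0.09, adjusted p = 1.4e-07).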
